A study of Drosophila melanogaster
Mus musculus with 4 samples.

Results

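The chromatin windows described here surround genes of interleukin-7 (IL-7) receptor signalling and of the growth and survival programme that the receptor drives. They are the windows of Il7r, Jak1, the neighbouring Stat5a and Stat5b, Socs2, Cish, Bcl2, Mcl1, Pim1, Ccnd2, Ccnd3, and Myc with a long stretch downstream of it. A site belonged to the set when its start lay inside 1 of these 11 windows of the mm10 mouse genome, whatever its signal, which gave 280 of the 69709 accessible sites in the authors' table. ATAC-seq was the assay: a transposase loaded with adapters tags DNA wherever nucleosomes leave it exposed, and tagged fragments are sequenced. The cells were B220+CD43+ cells, early B cell precursors, sorted from the bone marrow of C57BL/6 mice 8 weeks old, with 50000 cells and 5% added Drosophila S2 cells per library. A wild-type group (Hdac3+/+) and a group with Hdac3 deleted had 2 libraries each. The HDAC3 protein removes acetyl groups from histones as part of corepressor complexes. The labels name neither the deleted allele, nor a Cre driver, nor the number of mice behind the replicates. A p-value here therefore measures the spread between these samples, which may be technical. The wild-type pair differed on the sex chromosomes, as given below, so its spread may be more than technical.

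IL-7, made by stromal cells of the marrow, is needed for survival and division of early B cell precursors in the mouse. Its receptor pairs the alpha chain, encoded by Il7r, with the common gamma chain, and ligand binding activates the kinases Jak1 and Jak3, which phosphorylate STAT5 proteins. STAT5 enters the nucleus and activates genes that include its own feedback inhibitors Cish and Socs2 and genes for survival and cell cycle entry. Each window also holds other genes. No mouse annotation was used here, so a site is placed in a window, not in a promoter, exon or intron of its gene, and no sequence is shown.

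The reads counted in the 69709 sites ranged from 16132402 to 32988999 per library, and the median site held 95 to 183 reads. Wild-type replicate 2 stood apart on the sex chromosomes, with 10 peaks on chromosome Y below 50 Mb where the other libraries had 0. It was also more than 8-fold below every other library at 27 sites of chromosome X. The 2 wild-type libraries therefore do not look like repeats of 1 mouse, a point that was not tested further. All 11 windows are autosomal. Neither the deletion of Hdac3 nor the marker genes of the sorted cells were checked, since that needs gene positions.

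Of the 280 sites, 28 rose and 16 fell with deletion of Hdac3, together 15.7% of them. Over all sites of the genome 11.7% rose and 8.90% fell, so the set as a whole did not hold a larger share of called sites than the genome. A site was called at an adjusted p under 0.05 from limma on log2(normalized reads + 1), adjusted over all 69709 sites (20.6% called in either direction). The other 236 sites did not pass. Both Hdac3-deleted libraries lay above both wild-type libraries at 93 of the 280 sites and below them at 76, against 30.1% and 30.5% of all sites in those 2 orders. The median log2 fold change was 0.06 for the set and -0.01 for all sites. In the authors' deposited table, 64 of the 280 sites had an FDR under 0.05 (25.1% of all sites did), 45 of them higher and 19 lower. Over all 69709 sites 10668 were higher and 6829 lower by that FDR. Of the 44 calls made here, 38 had that FDR in the same direction, against 12356 of the 14335 calls over all sites. Both comparisons rest on the same reads. Leaving out wild-type replicate 1 left 13 higher and 6 lower calls, where 6.22% and 3.24% of all sites were called. Leaving out Hdac3-deleted replicate 1 left 17 and 8, with 6.08% and 6.13% of all sites. Without wild-type replicate 2, the library that stood apart on the sex chromosomes, there were 35 and 15, with 11.2% and 7.16% of all sites.

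**Figure D1:**
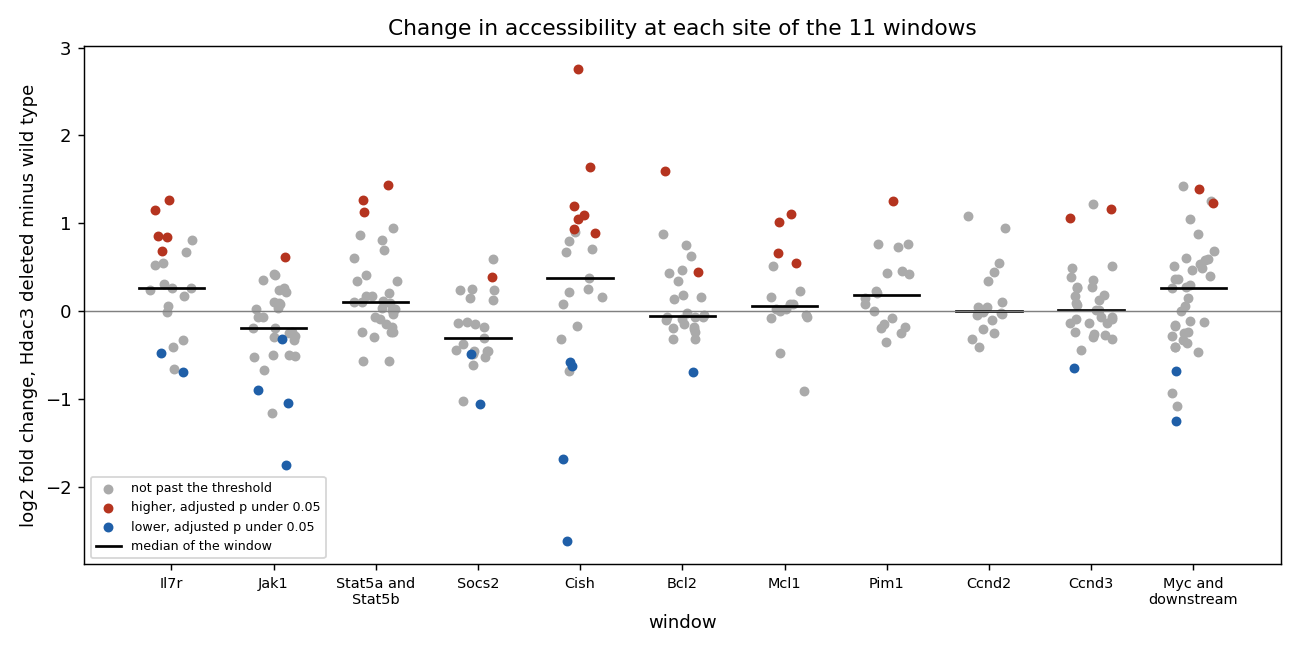
Log2 fold change (Hdac3 deleted minus wild type, 2 libraries each) of each of the 280 sites, by window. Points are sites, coloured where limma gave an adjusted p under 0.05, and black lines are window medians. The Cish window holds 11 coloured sites and the widest range, from -2.61 to 2.75, and the Ccnd2 window holds 0.

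The windows differed in their counts. Over all sites of the genome 20.6% were called. In the Cish window 11 of 23 sites were called (47.8%) and in the Il7r window 7 of 21 (33.3%). The Mcl1 window, with 4 of 18 (22.2%), and the Jak1 window, with 5 of 31 (16.1%), lay nearer the genome share. In each of the remaining windows the share was below 20.6%. The rises and falls counted below for each window stand against 11.7% and 8.90% of all sites. The Ccnd2 window had 0 calls among 18 sites by limma, with 4 higher and 0 lower at an unadjusted p under 0.05. There was 1 higher call by edgeR on the recovered reads and 0 calls by DESeq2. The authors' deposited table gives 2 higher sites with an FDR under 0.05, where 25.1% of all sites have one. No test between windows was run. The largest rises and falls named below for each window were picked among called sites whose groups do not overlap. That the groups are apart at those sites is therefore part of the choice, not a result.

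The first member of the pathway is the receptor. In the Il7r window (chr15, 9.40 to 9.63 Mb) 5 of 21 sites rose, which were 217 to 458 bp wide, and 2 fell, which were 1056 and 1012 bp wide. The other 14 sites did not pass. The most accessible site, chr15:9463282-9464337, held 1087 and 969 normalized reads in the wild-type libraries (replicate 1 first, here and below) and 637 and 862 in the Hdac3-deleted libraries. The groups do not overlap there, but Hdac3-deleted replicate 2 lies closer to wild type than to its partner. This gave a log2 fold change of -0.47 ± 0.14 (SE, limma adjusted p = 0.0241). Without Hdac3-deleted replicate 1 it was -0.25 (adjusted p = 0.241) and without wild-type replicate 1 it was -0.39 (adjusted p = 0.125), and over all alternatives the adjusted p lay between 0.000588 and 0.408. In the authors' deposited table its FDR is 0.145.

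The second broad site, chr15:9491757-9492768, fell from 555 and 547 to 320 and 364 normalized reads. Replicates of each genotype were close and the groups lay well apart, with a log2 fold change of -0.69 ± 0.15 (SE, limma adjusted p = 0.00547). It passed without each library in turn, with adjusted p between 0.0044 and 0.0344. With reads scaled to the tags left after the authors' filtering the adjusted p was 0.162 at a log2 fold change of -0.70. The largest rise of the window was at chr15:9472264-9472572, between these broad sites, where wild type held 79.0 and 83.9 reads and Hdac3-deleted cells 243 and 161. All Hdac3-deleted values lie above wild type, although the replicates of that genotype differ between themselves. Its log2 fold change of 1.27 ± 0.27 (SE, limma adjusted p = 0.00362) stayed past the threshold in all 14 alternatives fitted across the genome.

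A group of rises lay toward the end of the Il7r window. These 3 sites were chosen after their values were seen. At chr15:9571805-9572262 the libraries held 105, 144, 246 and 304 normalized reads (wild type, then Hdac3 deleted), and the log2 fold change was 1.15 ± 0.23 (SE, limma adjusted p = 0.00297). At chr15:9574837-9575107 they held 79.0, 95.3, 153 and 159, and at chr15:9577372-9577588 they held 65.1, 71.5, 110 and 142. Each of the 3 was higher in both Hdac3-deleted libraries, the last 2 with log2 fold changes of 0.84 and 0.86 (limma adjusted p = 0.029 and 0.0408). Those 2 sites missed the threshold without wild-type replicate 1 and in 2 other fits with a library left out, with adjusted p up to 0.188 and 0.178. They belong to a stretch of 5 neighbouring sites, all with positive fold changes, that spans 41.2 kb.

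Jak1 encodes the kinase bound to the receptor's alpha chain. Its window (chr4, 101.05 to 101.37 Mb) was one of the 2 with a lower mean level in Hdac3-deleted cells, and 4 of its 31 sites fell while 1 rose. Its leading site by mean level, chr4:101264372-101265507, had 1898 and 1949 normalized reads in wild type against 1629 and 1734 after deletion. The values do not overlap, but the log2 fold change of -0.19 (95% interval -0.37 to -0.02, limma adjusted p = 0.11) did not pass. The largest fall was at chr4:101342384-101342651, a narrow site of 268 bp, from 67.7 and 85.1 reads to 24.0 and 19.9. Of the 4 libraries only the 2 of wild type had a peak there, so the site may be listed only through the group where it is high. This was a log2 fold change of -1.75 ± 0.40 (SE, limma adjusted p = 0.0061), and without wild-type replicate 2 it was -1.59 (adjusted p = 0.0805).

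The rise in the Jak1 window was at chr4:101192231-101192876, from 250 and 260 to 366 and 421 normalized reads. Both Hdac3-deleted libraries lay above wild type, with a log2 fold change of 0.62 ± 0.18 (SE, limma adjusted p = 0.0198). It missed the threshold without wild-type replicate 1 (adjusted p = 0.0855) or Hdac3-deleted replicate 2 (adjusted p = 0.105), and scaling to filtered tags gave 0.262, the top of its range over alternatives, which began at 0.00239. None of the 5 calls of this window passed in all 4 fits with a library left out. A run of 7 neighbouring sites between 101254099 and 101293654, the most accessible site among them, had negative fold changes throughout and is described for that shared sign, after the values were seen. Of its sites 2 were called and the groups were apart at 6, where 60.6% of all sites have groups apart.

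STAT5 proteins are the transcription factors that carry the signal to the nucleus, and Stat5a and Stat5b lie side by side on chromosome 11. In their window (100.68 to 100.98 Mb) 3 of 32 sites rose and 0 fell by limma, with 1 lower site at an unadjusted p under 0.05 and 0 lower by edgeR or DESeq2. The authors' deposited table gives 7 higher and 0 lower at an FDR under 0.05 (21.9% of the window's sites, against 25.1% of all sites). At the top site of the window, chr11:100938692-100940173, wild type had 1996 and 2113 normalized reads and Hdac3-deleted cells had 1853 and 2187. The groups overlap, and the log2 fold change was -0.03 (95% interval -0.22 to 0.16). The largest rise was at chr11:100897339-100897841, from 102 and 70.3 reads to 262 and 205. Both Hdac3-deleted values stood above both wild-type values, and the log2 fold change of 1.44 ± 0.26 (SE, limma adjusted p = 0.00141) passed in all 14 alternatives.

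The other 2 rises lay close to it and are named here after their values were seen. The site chr11:100897986-100898288, 0.145 kb away, went from 37.9 and 62.4 to 127 and 110 normalized reads. The site chr11:100888417-100888836 went from 84.3 and 109 to 259 and 171. Their log2 fold changes were 1.27 and 1.13 (limma adjusted p = 0.0119 and 0.00696). Both missed the threshold without Hdac3-deleted replicate 1, and the former also without wild-type replicate 1, with adjusted p up to 0.124 and 0.0801. Adjoining parts of the same open stretch need not be independent of each other.

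**Figure D2:**
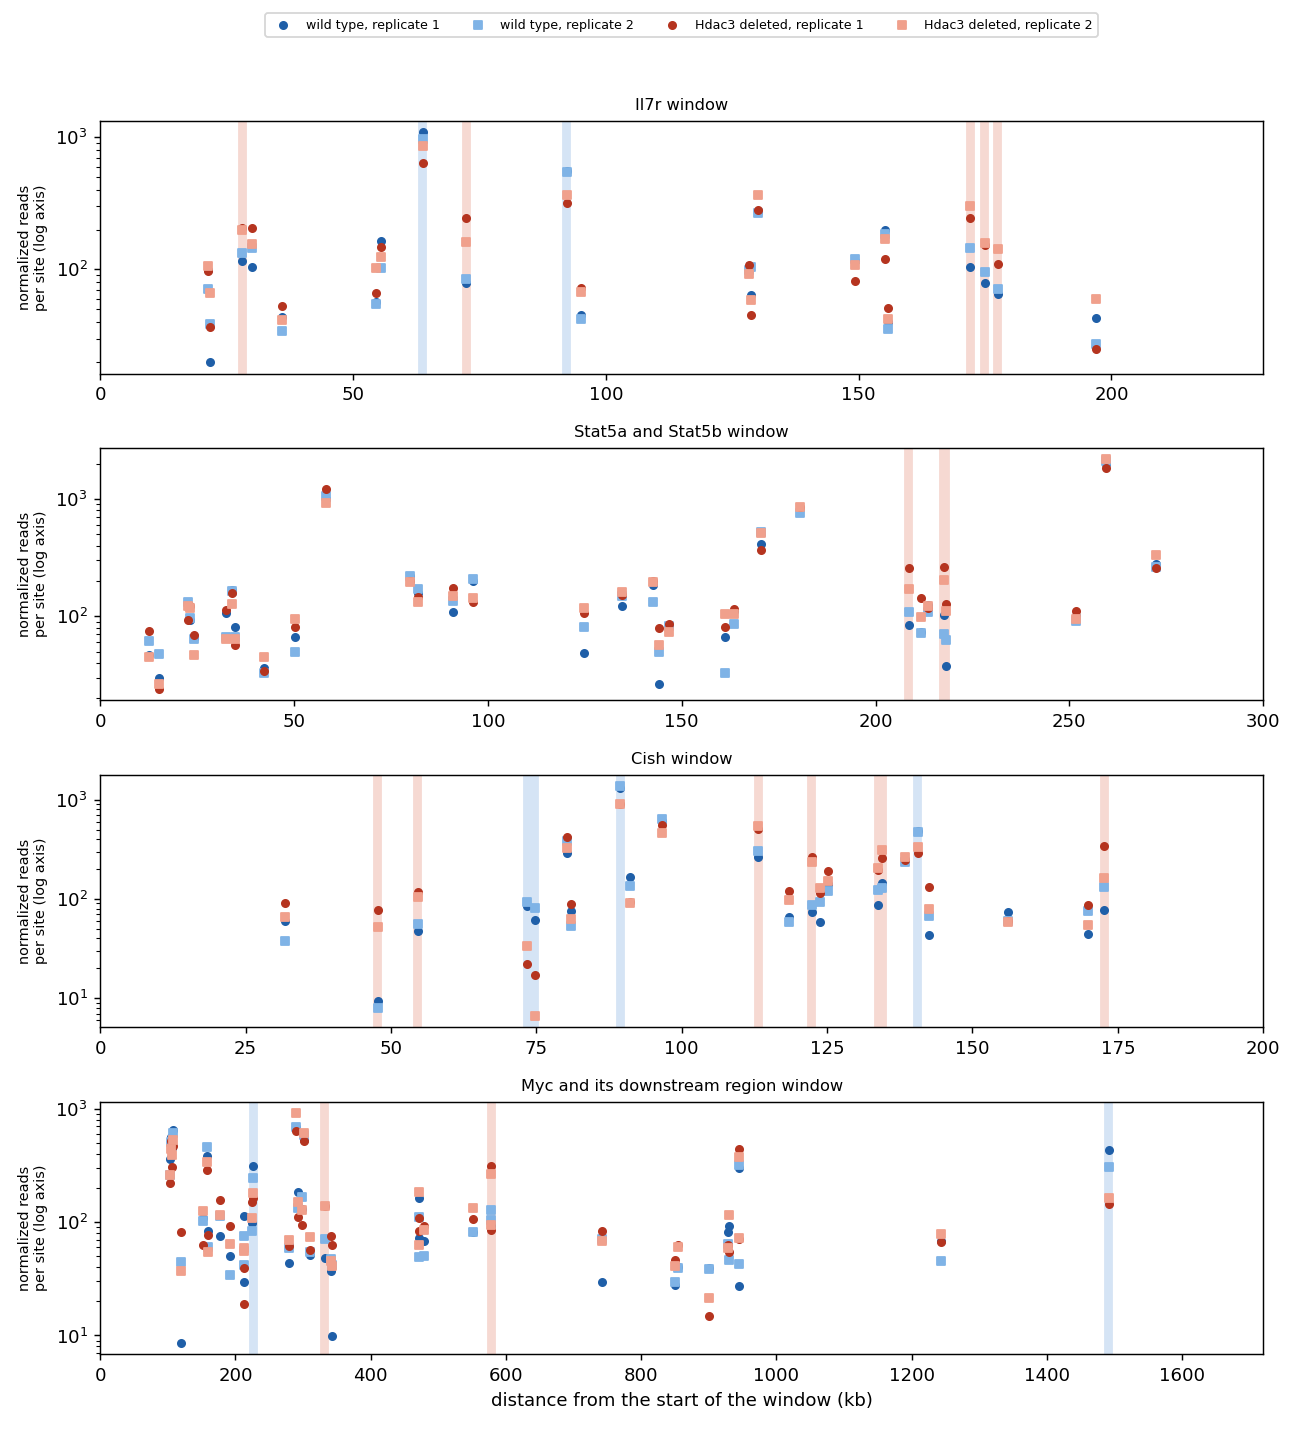
Normalized reads (log axis) of every site against distance from the start of the window in kb, in 4 windows. Blue points are the wild-type libraries and red points the Hdac3-deleted libraries, circles for replicate 1 and squares for replicate 2. Shaded sites were called higher (red) or lower (blue), with 3 rises close together late in the Il7r window, 3 in the Stat5a and Stat5b window, 4 in the middle of the Cish window, and a distant fall in the Myc window.

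Cish and Socs2 encode inhibitors of cytokine receptor signalling that STAT5 induces. The Cish window (chr9, 107.20 to 107.40 Mb) had the most calls, with 7 of 23 sites higher and 4 lower (11.7% and 8.90% over the genome). The groups overlapped at 4 of its sites, against 39.4% of all sites. Of its 11 calls, 7 passed with each library left out in turn. How many calls over all sites pass with each library left out was not counted. The authors' deposited FDR was under 0.05 at 15 of the 23 sites (65.2%), against 25.1% of all sites. The largest rise was at chr9:107247577-107247813, from 9.30 and 7.94 normalized reads to 77.9 and 51.8. The wild-type values rest on 14 and 7 reads and the Hdac3-deleted values on 78 and 39. A peak had been called there in the 2 Hdac3-deleted libraries alone, so the site may be listed only through the group where it is high. The log2 fold change was 2.75 ± 0.52 (SE, limma adjusted p = 0.00186), and the adjusted p lay between 1.32e-05 and 0.0409 over the 13 alternatives that gave a value.

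The largest fall of the Cish window was at chr9:107274623-107274844, from 61.1 and 81.7 normalized reads to 17.0 and 6.64. The Hdac3-deleted libraries held 17 and 5 reads there. Its log2 fold change was -2.61 ± 0.52 (SE, limma adjusted p = 0.0027). The neighbouring site, chr9:107273279-107273558, 1.06 kb away and named after its values were seen, fell from a mean of 89.0 ± 5.67 to 27.6 ± 7.94 normalized reads (SD, n = 2 each; log2 fold change -1.68, limma adjusted p = 0.0054). Groups were apart at both sites, and both passed without each library in turn.

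The most accessible site of the Cish window fell too. At chr9:107288769-107290057 values went from 1313 and 1367 to 898 and 895 normalized reads, means of 1340 ± 38.2 and 897 ± 1.97 (SD, n = 2 each). The replicates lay close together within each genotype. The log2 fold change was -0.58 ± 0.10 (SE, limma adjusted p = 0.00125), between -0.61 and -0.55 with a library left out. Scaling to filtered tags gave -0.59 with an adjusted p of 0.252, the highest of the alternatives, of which the lowest was 3.01e-06.

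Beyond it lay a stretch of 8 neighbouring sites with positive fold changes, from 107312770 to 107338539, chosen after the values were seen. In this stretch 4 sites were called, the groups did not overlap at 7 (60.6% of all sites), and the median log2 fold change was 0.85. At chr9:107322160-107322572 the level rose from 73.1 and 86.2 to 264 and 235 normalized reads, and at chr9:107312770-107313509 from 264 and 302 to 508 and 539. Replicates were close at both sites and the groups were well apart. Their log2 fold changes were 1.64 and 0.89 (limma adjusted p = 0.000404 and 0.00158), and both passed without each library in turn. At chr9:107334293-107334717 the level rose from 144 and 129 to 260 and 308 reads (log2 fold change 1.05, limma adjusted p = 0.00303). Its neighbour chr9:107333575-107333989 rose by 0.94 (limma adjusted p = 0.0144), and missed the threshold without wild-type replicate 1, with an adjusted p of 0.151. The stretch ended next to a fall, at chr9:107340343-107340821, from 480 and 475 to 287 and 336 reads (log2 fold change -0.62, limma adjusted p = 0.0136), which did not pass without wild-type replicate 1 or Hdac3-deleted replicate 1 (adjusted p up to 0.0873).

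The Socs2 window (chr10, 95.30 to 95.52 Mb) was the other with a lower mean level in Hdac3-deleted cells. Of 23 sites 2 fell and 1 rose, and 16 had a negative fold change. Normalized reads at its leading site, chr10:95514627-95515959, were 2749 and 2906 in wild type against 2450 and 2547 after deletion. The groups are apart by a small margin, with a log2 fold change of -0.18 (95% interval -0.33 to -0.03) that did not pass (limma adjusted p = 0.0825). The largest fall was at chr10:95396374-95396866, from 270 and 217 reads to 92.9 and 145 (log2 fold change -1.05 ± 0.25, SE, limma adjusted p = 0.00798). Without wild-type replicate 1 its adjusted p was 0.0617 and without Hdac3-deleted replicate 1 it was 0.064, and the lowest over the alternatives was 6.97e-05.

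It lay in a run of 8 neighbouring sites over 29.2 kb, chosen after the values were seen because all fold changes were negative. The groups did not overlap at 7 of them (60.6% of all sites), and 2 were called. The median log2 fold change of that run was -0.45. The site that rose in the Socs2 window, chr10:95313492-95314371, went from 730 and 737 to 859 and 1077 normalized reads. Hdac3-deleted replicate 2 was the highest, and without it the log2 fold change went from 0.39 to 0.23 (limma adjusted p = 0.0389 and 0.297). The call was also lost without wild-type replicate 1 (adjusted p = 0.112) or 2 (adjusted p = 0.0647), and over all alternatives the adjusted p lay between 0.00551 and 0.568.

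Bcl2 and Mcl1 encode proteins that hold back the mitochondrial path to apoptosis. In the Bcl2 window (chr1, 106.44 to 106.82 Mb) 2 of 26 sites rose and 1 fell. Its most accessible site, chr1:106758753-106760461, the widest of the set at 1709 bp, had 2605 and 2581 normalized reads in wild type against 2589 and 2361 after deletion. The groups overlap, with a log2 fold change of -0.07 (95% interval -0.22 to 0.09). The largest rise was at chr1:106597662-106598027, from 57.1 and 54.5 to 131 and 221 reads. Hdac3-deleted replicates differed by more than the wild-type level there, yet both stood above it, and the log2 fold change of 1.59 ± 0.30 (SE, limma adjusted p = 0.00189) passed in all 14 alternatives. The fall, at chr1:106552907-106553209, went from 450 and 423 to 246 and 296 reads (log2 fold change -0.69 ± 0.17, SE, limma adjusted p = 0.0104). It missed the threshold without wild-type replicate 1 (adjusted p = 0.0657) and without Hdac3-deleted replicate 1 (0.0718), and its adjusted p reached 0.166 with scaling to filtered tags and 0.000408 at the lowest.

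In the Mcl1 window (chr3, 95.55 to 95.76 Mb) 4 of 18 sites rose and 0 fell by limma. By edgeR and DESeq2 0 fell, 1 lower site had an unadjusted p under 0.05, and the authors' deposited table gives 3 higher and 1 lower. Its top site, chr3:95624693-95625655, had 2624 and 2477 normalized reads in wild type and 2457 and 2657 after deletion. The ranges coincide almost entirely, and the 95% interval of the log2 fold change was -0.15 to 0.16. The largest rise, at chr3:95706370-95706665, went from 36.5 and 61.3 to 114 and 94.3 reads. Its log2 fold change was 1.11 ± 0.34 (SE, limma adjusted p = 0.0276). Without wild-type replicate 1 it was 0.75 (adjusted p = 0.263), and without Hdac3-deleted replicate 1 it was 0.98 (adjusted p = 0.121); the lowest adjusted p over the alternatives was 0.00557. The next site, 0.818 kb away at chr3:95707483-95707837 and named after its values were seen, rose by 1.01 on the log2 scale (limma adjusted p = 0.0434), and like each of the 4 rises of this window it was lost without wild-type replicate 1 and without Hdac3-deleted replicate 1.

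Pim1 encodes a serine and threonine kinase that promotes survival and growth. Its window (chr17, 29.39 to 29.60 Mb) had 1 rise and 0 falls among 18 sites by limma, with 0 lower at an unadjusted p under 0.05, by edgeR or by DESeq2, and 4 higher and 0 lower in the authors' deposited table. The site that rose, chr17:29584334-29584597, went from 52.5 and 64.7 normalized reads to 151 and 132. It stands 29.9 kb from its nearest neighbour in the table, and the groups are well apart. Its log2 fold change was 1.26 ± 0.29 (SE, limma adjusted p = 0.00586), and it passed in all 14 alternatives. The window's most accessible site, chr17:29490112-29491444, went from 1407 and 1406 to 1611 and 1505 reads, a log2 fold change of 0.15 (95% interval -0.04 to 0.34) that did not pass.

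D-type cyclins bind the kinases that start the cell cycle, and Ccnd3 has a known part in the division of B cell precursors in the mouse. In the Ccnd2 window (chr6, 127.02 to 127.25 Mb), where no site passed, the most accessible site, chr6:127109131-127109952, had 1555 and 1484 normalized reads in wild type and 1471 and 1682 after deletion. The groups overlap, and the log2 fold change was 0.05 (95% interval -0.15 to 0.25). The site with the smallest adjusted p, chr6:127081890-127082109, went from 27.9 and 30.6 to 60.9 and 65.1 reads. The groups are apart at this low site, with a log2 fold change of 1.08 (95% interval 0.27 to 1.90, limma adjusted p = 0.0567). It passed with edgeR on the recovered reads (adjusted p = 0.0465), while its adjusted p over the alternatives lay between 0.0356 and 0.245.

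In the Ccnd3 window (chr17, 47.40 to 47.70 Mb) 2 of 31 sites rose and 1 fell. Its top site, chr17:47541784-47542621, had 1215 and 1020 normalized reads in wild type and 1138 and 1255 after deletion. The groups overlap, with a 95% interval of the log2 fold change from -0.13 to 0.34. The largest rise, at chr17:47431347-47431665, went from 41.8 and 61.3 to 107 and 122 reads (log2 fold change 1.16 ± 0.32, SE, limma adjusted p = 0.0161). It was lost without wild-type replicate 1 (adjusted p = 0.144) or Hdac3-deleted replicate 2 (0.0555), with 0.00265 the lowest over the alternatives. This rise opened a run of 8 neighbouring sites with positive fold changes over 77.0 kb, described after the values were seen. The log2 fold changes of the run went from 0.02 to 1.22. Of its sites 2 were called, and the groups were apart at 6, where 60.6% of all sites have groups apart. The fall, at chr17:47553036-47553333, from 297 and 223 to 161 and 167 reads (log2 fold change -0.65, limma adjusted p = 0.0428), held in 7 of 14 alternatives. Without wild-type replicate 1 it was -0.44 (adjusted p = 0.401), without Hdac3-deleted replicates 1 and 2 the adjusted p was 0.116 and 0.0641, and the lowest was 0.00928.

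Myc encodes a transcription factor that drives growth and division, and distal elements far downstream of it are known to control it in blood cells. The window runs from 61.88 to 63.60 Mb of chromosome 15, 1720 kb in all, and holds 39 sites, of which 2 rose and 2 fell. Of 4 stretches of 430 kb each, the first held 23 sites, the second 9, the third 6 and the last 1. That last site, chr15:63371320-63371970, lies 230 kb from any other site of the table and fell the most. It went from 430 and 307 normalized reads to 143 and 162, means of 369 ± 86.4 and 152 ± 13.6 (SD, n = 2 each). Wild-type replicates differ more than the deleted ones, and the groups do not overlap. The log2 fold change was -1.25 ± 0.21 (SE, limma adjusted p = 0.00099), and it passed in all 14 alternatives.

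The largest rise of the Myc window, chr15:62458040-62458478, went from 91.6 and 128 to 310 and 263 normalized reads. Both Hdac3-deleted libraries stood above the higher wild-type value, with a log2 fold change of 1.39 ± 0.23 (SE, limma adjusted p = 0.000961) that passed in all 14 alternatives. In the stretch of 430 kb around it 8 of 9 sites had a positive fold change and 1 was called. Over all 69709 sites 34123 had a positive fold change and 20.6% were called. A second rise, at chr15:62212296-62212588, went from 48.5 and 70.3 to 138 and 138 reads (log2 fold change 1.23 ± 0.29, SE, limma adjusted p = 0.00814). Without wild-type replicate 1 its adjusted p was 0.0741, the highest of the alternatives, which began at 0.00053. The second fall, chr15:62106497-62106955, went from 309 and 245 to 162 and 182 reads (log2 fold change -0.68, limma adjusted p = 0.0301). It was lost without wild-type replicate 1 (adjusted p = 0.295) and without Hdac3-deleted replicate 1 (0.117), and the lowest adjusted p was 0.00477.

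The most accessible site of the Myc window, chr15:62169194-62170162, had 685 and 695 normalized reads in wild type and 636 and 915 after deletion. Hdac3-deleted replicate 1 lay below wild type and replicate 2 above it, and the log2 fold change was 0.15 (95% interval -0.18 to 0.47). Near the start of the window a group of 4 sites within 3.96 kb, between 61983386 and 61987343, is described after its values were seen. All 4 had negative fold changes, from -0.46 to -0.17, and the groups were apart at 3 of them (60.6% of all sites). None of the 4 passed (limma adjusted p from 0.0635 to 0.47).

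**Figure D3:**
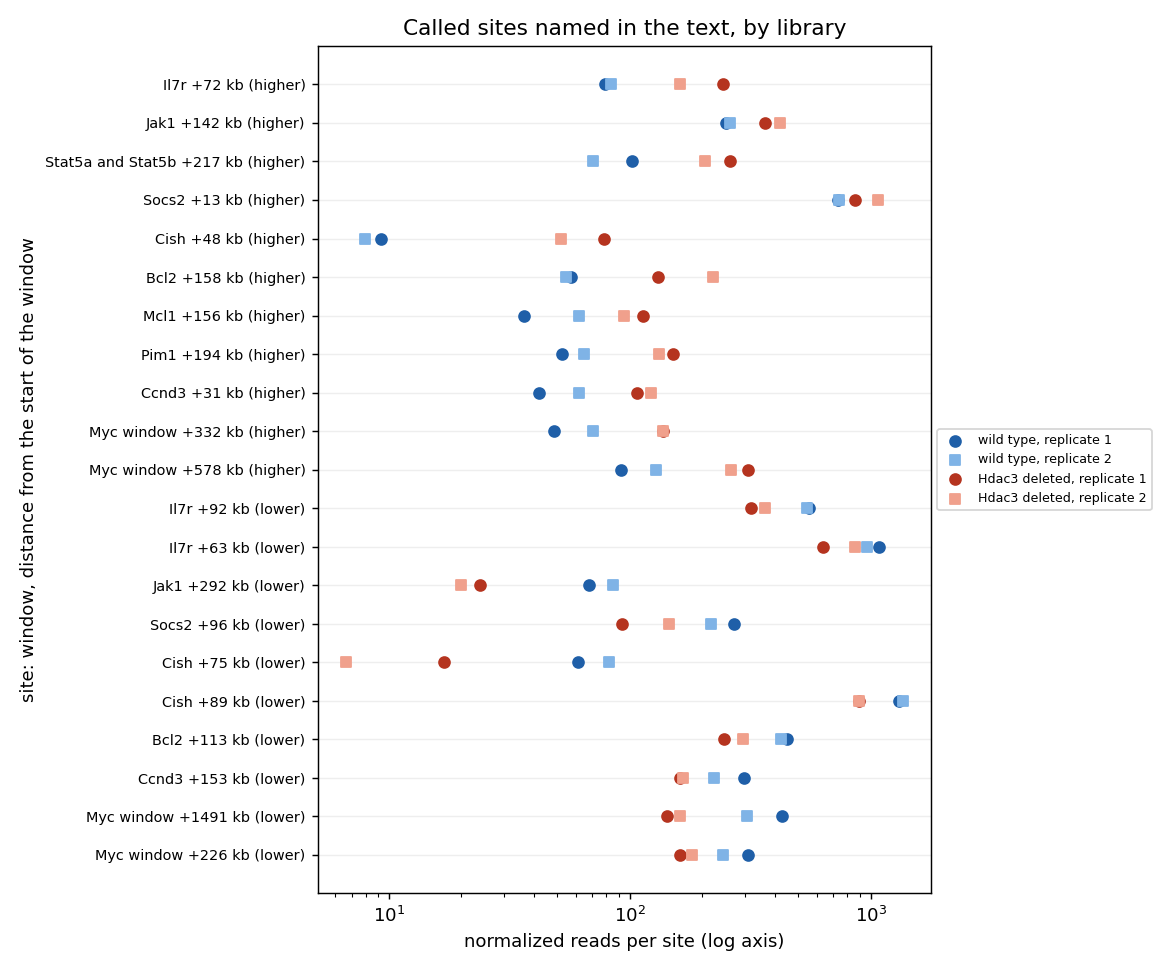
Normalized reads (log axis) in each of the 4 libraries at the 21 called sites chosen by rule: the most accessible site of a window where called, and its largest rise and fall among called sites whose groups do not overlap. Labels give the window and the distance from its start in kb. Red points are Hdac3 deleted and blue points wild type, kept apart by that rule, and the widest separations are at the 2 Cish sites at +48 and +75 kb.

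At 9 of the 11 windows the most accessible site did not pass, a share near that of all sites, of which 79.4% did not pass. At the other 2, Il7r and Cish, it was lower. Of the 13 sites of 1000 bp or more in the set, 0 were higher (0 also at an unadjusted p under 0.05, by edgeR and by DESeq2) and 4 lower by limma, and 10 had a negative fold change. Among all 6039 sites of that width 2.80% were higher and 15.8% lower, so the same order held over the genome. Among the 107 narrow sites, below 300 bp, 8 rose and 4 fell, against 10.3% and 4.83% of such sites in the genome. Sites of 300 bp or more but under 1000 bp held most calls, with 20 of 160 sites higher and 8 lower (12.5% and 5.00%), against 14.2% and 10.8% of such sites in the genome. Median normalized reads of the sites that rose were 87.0 in wild type and 201 after deletion, and of those that fell 323 and 168. Their log2 fold changes ranged from 0.39 to 2.75 and from -2.61 to -0.31.

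Mean levels of the windows gave a different order from summed reads. The mean of log2(normalized reads + 1) over the sites of a window was higher in Hdac3-deleted cells in 9 windows and lower in 2, Jak1 and Socs2. In the Cish window it went from 6.84 ± 0.07 to 7.15 ± 0.17 (SD, n = 2 each), and in the Il7r window from 6.66 ± 0.01 to 6.95 ± 0.12. The Jak1 window went from 7.20 ± 0.10 to 6.97 ± 0.05, and the Socs2 window from 7.60 ± 0.15 to 7.37 ± 0.08. These are descriptions, with no test: an exact permutation test of 2 libraries against 2 cannot give a two-sided p below 0.333, and over all 69709 sites the mean was likewise higher in both Hdac3-deleted libraries (7.30 and 7.26 against 7.22 and 7.25). The genotypes did not overlap in any window as deposited. With reads scaled to filtered tags they overlapped in 9 of the 11, Cish and Mcl1 being the others, while the difference kept its sign in each window under the 4 scalings.

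Summed normalized reads, which follow the few broad sites, gave ratios near 1. The ratio of Hdac3-deleted to wild-type sums lay between 0.902 in the Socs2 window and 1.08 in the Stat5a and Stat5b window and the Pim1 window. In the Il7r window it was 1.03 although 15 of 21 sites had a positive fold change, and the most accessible site, which fell, held 30.1% of the window's wild-type reads. In the Myc window the sums were 6617 and 6511, a ratio of 0.984, against a mean difference of 0.17 on the log2 scale. In the Bcl2 window the median fold change, -0.05, and the mean difference, 0.13, differ in sign.

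**Figure D4:**
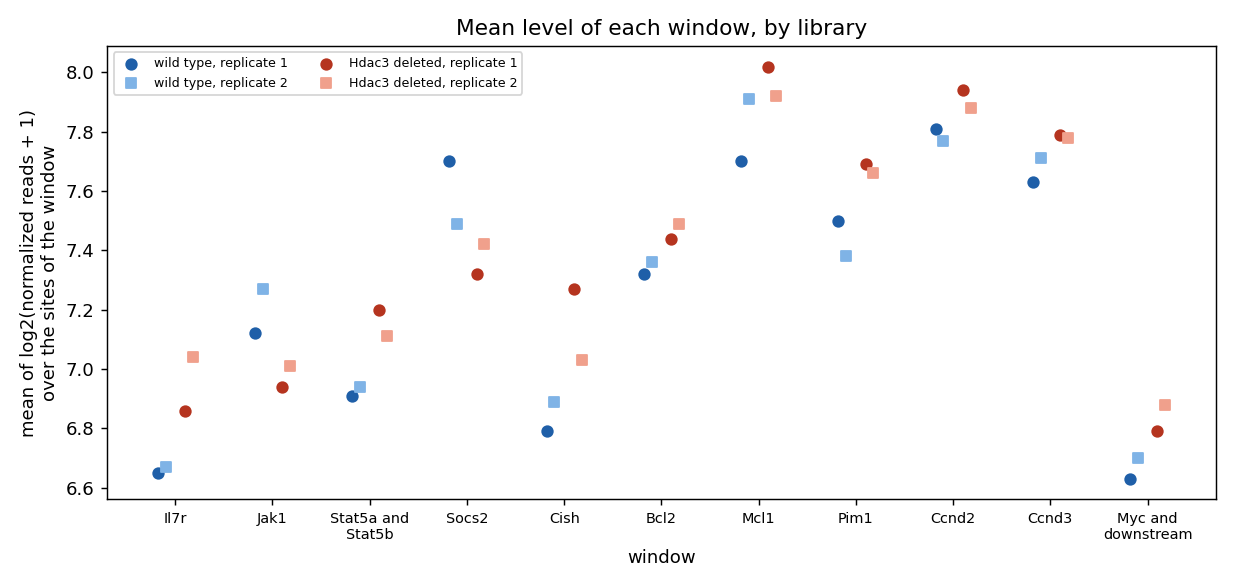
Mean of log2(normalized reads + 1) over the sites of each window, 1 point per library (blue wild type, red Hdac3 deleted, circles replicate 1, squares replicate 2). Red points lie above blue ones in 9 windows and below them in the Jak1 and Socs2 windows, and in the Mcl1 window wild-type replicate 2 and Hdac3-deleted replicate 2 nearly meet, at 7.91 and 7.92.

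Neighbouring sites often had the same sign. Of the 280 sites, 122 (43.6%) lay in runs of 5 or more neighbours whose fold changes had 1 sign, against 34.4% of all sites. Of the 44 calls, 15 (34.1%) were next to a call in the same direction, against 40.4% of the calls in the genome. Parts of the same open region can make such neighbours, so these shares are descriptions.

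Peak lists, called by the authors in each library by itself, gave a second view of the same reads. A peak in each of the 4 libraries overlapped 184 of the 280 sites (65.7%), and 65.4% of all sites. Peaks of the wild-type pair alone covered another 25 sites (8.93%), and peaks of the Hdac3-deleted pair alone covered 12 (4.29%). Over all sites these shares were 8.84% and 4.35%, so the windows together did not stand apart from the genome. The former were most frequent in the Jak1 window (5 of 31 sites) and the Socs2 window (4 of 23), and the latter in the Myc window (4 of 39) and the Cish window (3 of 23). In the Socs2 window 23 and 22 sites had a peak in wild-type replicates 1 and 2, against 13 and 19 in the Hdac3-deleted replicates. Of the 28 sites that rose, 28 had a peak in each Hdac3-deleted library and 25 in each wild-type library. Of the 16 that fell, 16 had one in each wild-type library and 12 and 13 in the Hdac3-deleted libraries. Calls and peaks rest on the same reads, so this match was largely set in advance and is no separate support. The same shares for called sites over the genome were not counted. Among all 280 sites 256 and 244 had a peak in the wild-type libraries and 228 and 236 in the Hdac3-deleted libraries. Peaks in the windows numbered 304 and 256 in wild type and 249 and 261 after deletion. Of these, 40 and 3 in wild type and 12 and 12 after deletion overlapped no site of the table. Wild-type replicate 1 was also the most deeply sequenced library, and the part of depth in these counts was not tested.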

How the data were processed

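ATAC-seq signal was compared between 2 wild-type and 2 Hdac3-deleted libraries, grouped by sample title. Per the submitters' processing notes, the tools were edgeR, DiffBind 1.10.2, MACS2 2.0.10, SAMtools and Bowtie2 2.2.4, and the builds mm10 and dm3, with no role or order given. MACS2 was run separately on each library with a q cutoff of 0.001, tags extended by 140 bp and 1 tag kept per position, per the file headers. In those lists the authors' pileup is a signal in fragments, the score a −log10 p-value or q-value, and the fold enrichment a ratio to local background; the −log10 q-value was used as a filter and the others were not used.

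The authors' table holds a normalized signal per site and library. Its deposited log2 columns, p-value and FDR are the authors' own comparison and are named as such. Each value divided by that of 1 read (0.664 and 1.13 in wild type, 0.999 and 1.33 after deletion) was whole within 0.001 reads at 100% of sites, so reads per site could be recovered. The sources used here do not give how peaks were merged into sites. The peak files' names tie each column to its sample, and their letters run opposite to the title numbers for the Hdac3-deleted pair. Coordinates are as in the table, whose starts lie 1 bp before the start of a peak.

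All 69709 sites were fitted with limma 3.58.1 (R 4.3.3) after log2(value + 1), allowing a mean-variance trend, and p-values were adjusted by Benjamini-Hochberg. The fold change therefore understates changes at low sites. No site was filtered out. In limma the variance of each site is drawn toward that of sites of similar level. An SE, interval or adjusted p thus does not rest on the spread of that site's 4 values alone. Each library was scaled to a common level, without the added fly cells, so a shift common to all sites could not be seen. The alternatives were 3 other scalings, edgeR 4.0.16 and DESeq2 1.42.0 on recovered reads, other pseudocounts and thresholds, a filter at 50 reads, replicate blocks and each library left out. The code was tested on simulated data. Duplicate reads carry no molecular identifiers, so read counts are not counts of molecules.

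Sites named were, per window, the one with the highest mean and the largest rise and fall among called sites whose groups did not overlap (up to 3 each in the Myc window), or the smallest adjusted p where none was called. Windows, lists and tests were chosen with earlier results of these data known. Promoter sites, marker genes, other pathway genes and motifs were not analysed here.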

Additional observations from a re-analysis of the deposited data

How the results depend on the processing

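The counts of 28 higher and 16 lower sites stayed within 1.5 times under DESeq2 size factors, library totals, edgeR, DESeq2, both pseudocounts and the filter at 50 reads. By edgeR they were 30 and 16 (12.3% and 8.71% of all sites), and by DESeq2 22 and 14 (9.23% and 6.67%). Scaling to tags left after filtering gave 19 higher and 6 lower sites, where 8.30% and 4.24% of all sites were called. Leaving out a library gave 13 to 35 higher and 6 to 18 lower, with the lone sample of a genotype assumed to vary like the others, while 6.08% to 11.4% and 3.24% to 9.69% of all sites were called. An adjusted p under 0.01 left 13 and 7 (5.45% and 3.79% of all sites), and under 0.1 gave 42 and 27 (15.1% and 12.6%). With the replicate block by title numbers the counts were 27 and 15 (11.6% and 8.76% of all sites). With the replicate block by the letters of the peak files, which pair the libraries the other way, they were 43 and 28, and 15.2% and 12.6% of all sites. The deviations of same-numbered libraries had a correlation of -0.10. With 2 libraries per genotype the value for same-lettered libraries, 0.10, is the same number with its sign changed. This 1 weak value establishes neither pairing. The cause of the differences between these settings was not tested. How many calls over all sites held in every alternative was not counted, so the next counts cannot be set against the genome. Of the 44 calls, 15 passed in each fit with a library left out and 10 in all 14 alternatives. Of the 21 called sites named by rule, 0 changed sign, 6 passed in all 14 alternatives, and 2 Cish sites passed in the 13 that gave a value, since the filter at 50 reads leaves them out. Sites with a peak in all 4 libraries numbered 184, and 183, 154 and 153 under stricter peak or overlap cutoffs. The mean difference of the Ccnd2 window fell from 0.12 to 0.01 with the filter at 50 reads, in which low sites are left out. The called sites held as few as 5 reads in a library, and the part of depth in the calls was not tested.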
